A study of Mus musculus with 4 samples.

Results

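The genes described here are 8 enzymes of cholesterol synthesis, Hmgcs1, Idi1, Fdps, Fdft1, Sqle, Lss, Cyp51 and Dhcr7, in dermal white adipose tissue (dWAT), the fat layer of the skin that lies around the lower hair follicles. They were found by their symbols, and all 8 were in the deposited table of 22913 genes. Each of the 8 was among the 14203 genes with at least 1 FPKM (fragments per kilobase of feature, scaled to the mapped fragments of the library) in at least 1 library, which are called the tested genes below. The study microdissected dWAT from C57BL/6 mice and sequenced its RNA in 4 libraries, 1 per group: old mice in telogen (OTD), young mice in telogen (YTD), old mice in anagen (OAD) and young mice in anagen (YAD). Telogen is the resting phase and anagen the growth phase of the hair cycle, and anagen had been induced by depilation, so the anagen skin was depilated and the telogen skin was not. Depilation and hair cycle phase therefore cannot be told apart. Old mice were 18 months and young mice 2 months of age in the protocol text. The age field gave 18 months for YTD and 2 months for OAD, against their titles and the protocol, so groups were taken from the titles. Per the study's methods each group's tissue came from many mice, but with 1 library per group there was no replicate spread, and no p-value is given for any difference.

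The labelled tissue was checked against its markers. All 12 adipocyte markers were above 0 in every library, with Adipoq, the adipocyte hormone adiponectin, at 427 FPKM in OTD and 280 in YTD, against 103 in OAD and 76.5 in YAD. The libraries also held other tissue: the summed level of 12 skeletal muscle markers was 12078 to 106922 FPKM, and that of 11 hair matrix and inner root sheath markers was 221 in OTD and 392 in YTD, against 18212 in OAD and 14711 in YAD. The share of FPKM on 13 mitochondrially encoded genes was 52.7% in OTD and 44.7% in YTD, against 18.3% in OAD and 14.4% in YAD. Depth, estimated from the smallest steps of the values, was about 17400000 to 24300000 fragments per library. In such bulk tissue fewer cells of a type and less RNA per cell cannot be told apart.

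Cells make cholesterol from acetyl-CoA through mevalonate, isoprenoid diphosphates, squalene and lanosterol. When sterols are low in the endoplasmic reticulum, the membrane-bound factor SREBP-2, made from Srebf2, is released and raises transcription of these enzymes, and INSIG proteins hold it back when sterols are plentiful. In skin, epidermal keratinocytes, sebaceous glands and growing hair follicles are known for active sterol synthesis, whereas adipocytes store much cholesterol and are known to make comparatively little of it.

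The start regions are shown because genes of this pathway are known to share short motifs there. A RefSeq start region (GRCm38.p6) was found for 5 of the 8 genes. Fdps, Fdft1 and Sqle had none in the table used. The 250 bases upstream of a start were searched on both strands for the sterol response element core TCACNCCAC, the CCAAT box CCAAT and the GC box GGGCGG. Capitals mark every match, on either strand, and no match overlapped another. In order they are Hmgcs1 at chr13:119690101-119690350 on the plus strand, Idi1 at chr13:8885356-8885605 on the plus strand, Lss at chr10:76531355-76531604 on the plus strand, Cyp51 at chr5:4104698-4104947 on the minus strand, and the first and the last of 3 starts of Dhcr7 at chr7:143822917-143823166 and chr7:143829964-143830213 on the plus strand.
Hmgcs1: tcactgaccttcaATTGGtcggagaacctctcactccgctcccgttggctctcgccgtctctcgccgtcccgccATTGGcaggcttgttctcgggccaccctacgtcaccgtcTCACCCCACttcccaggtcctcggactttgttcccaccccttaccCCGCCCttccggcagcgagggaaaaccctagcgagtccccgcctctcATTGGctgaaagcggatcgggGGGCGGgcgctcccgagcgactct
Idi1: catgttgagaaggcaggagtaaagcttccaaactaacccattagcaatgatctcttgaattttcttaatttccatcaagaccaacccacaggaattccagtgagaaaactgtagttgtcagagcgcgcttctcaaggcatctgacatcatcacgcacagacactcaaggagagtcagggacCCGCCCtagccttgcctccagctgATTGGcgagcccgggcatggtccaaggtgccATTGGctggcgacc
Lss: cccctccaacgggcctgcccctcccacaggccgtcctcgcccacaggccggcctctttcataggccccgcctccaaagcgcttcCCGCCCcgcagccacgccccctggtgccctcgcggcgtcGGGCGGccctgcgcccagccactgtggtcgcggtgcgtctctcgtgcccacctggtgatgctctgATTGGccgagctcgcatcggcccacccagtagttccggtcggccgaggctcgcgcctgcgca
Cyp51: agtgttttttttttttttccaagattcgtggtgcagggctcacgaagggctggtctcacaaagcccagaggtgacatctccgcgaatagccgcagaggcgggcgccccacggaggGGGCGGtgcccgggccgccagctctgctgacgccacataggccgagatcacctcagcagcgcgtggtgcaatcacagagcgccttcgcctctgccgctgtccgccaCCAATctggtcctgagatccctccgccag
Dhcr7, first start: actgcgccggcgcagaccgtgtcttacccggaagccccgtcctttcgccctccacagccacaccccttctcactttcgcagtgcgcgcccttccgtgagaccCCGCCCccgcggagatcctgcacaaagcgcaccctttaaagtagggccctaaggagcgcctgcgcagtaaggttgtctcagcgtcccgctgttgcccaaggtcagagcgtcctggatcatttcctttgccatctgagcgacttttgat
Dhcr7, last start: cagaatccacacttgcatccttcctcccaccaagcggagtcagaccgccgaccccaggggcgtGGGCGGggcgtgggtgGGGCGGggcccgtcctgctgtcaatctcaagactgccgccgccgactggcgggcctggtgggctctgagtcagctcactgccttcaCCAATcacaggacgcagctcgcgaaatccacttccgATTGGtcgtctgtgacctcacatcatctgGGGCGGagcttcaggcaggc
The sterol response core was found only in the Hmgcs1 region among these, at position -137 from the start, and in 1.05% of all 32851 RefSeq start regions of the same length. All 5 genes held at least 1 CCAAT box and at least 1 GC box in a start region, against 33.8% and 32.7% of all start regions and 37.5% and 35.4% of the 27025 genes that have one. Hmgcs1 held 3 CCAAT boxes, the one nearest the start at position -45, where Idi1 has one as well. The middle start of Dhcr7, at chr7:143823149-143823398, held no match to any of the 3 motifs. All 12 other listed enzymes of the pathway had a start region, 10 of them with a CCAAT box and 10 with a GC box and 0 with the sterol response core. These matches describe letters in these windows and are not measured binding sites.

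The levels are given in the order of the pathway, in FPKM, which is per length of the listed feature. Hmgcs1, which forms HMG-CoA from acetyl-CoA units (ENSMUSG00000093930, chr13:119690462-119708086), was at 20.4 FPKM in OTD and 24.9 in YTD, against 108 in OAD and 98.6 in YAD. Idi1, which isomerises the first isoprenoid diphosphate (ENSMUSG00000058258, chr13:8885501-8892451), was at 8.87 in OTD and 12.9 in YTD, against 57.3 in OAD and 47.9 in YAD. Fdps, which joins these units to farnesyl diphosphate (ENSMUSG00000059743, chr3:89093592-89101967), was at 21.4 in OTD and 33.8 in YTD, against 165 in OAD and 150.1 in YAD. All 3 early enzymes were several times higher in both anagen libraries than in either telogen library. A higher anagen level alone was common: 50.5% of tested genes had one in young and 51.6% in old mice. The share with both anagen values above both telogen values was not computed. Fdft1, squalene synthase, which draws farnesyl diphosphate into sterols (ENSMUSG00000021273, chr14:63145153-63177793), was at 29.0 FPKM in OTD and 26.6 in YTD, against 40.3 in OAD and 34.4 in YAD. Its 2 anagen values also lay above its 2 telogen values, but closely.

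Past squalene, Sqle, the squalene epoxidase and a rate-limiting step of the sterol branch (ENSMUSG00000022351, chr15:59315081-59331192), was at 2.66 FPKM in OTD and 3.61 in YTD, against 49.6 in OAD and 45.4 in YAD. Lss, which closes the ring of lanosterol (ENSMUSG00000033105, chr10:76531607-76555479), was at 1.57 in OTD and 2.09 in YTD, against 19.3 in OAD and 17.9 in YAD. These 2 genes were the lowest of the 8 in telogen and had the largest folds between phases. Cyp51, which removes a methyl group from lanosterol (ENSMUSG00000001467, chr5:4081145-4104746), was at 4.83 FPKM in OTD and 6.06 in YTD, against 36.5 in OAD and 26.2 in YAD. Dhcr7, which reduces the sterol ring in the final steps (ENSMUSG00000058454, chr7:143823167-143848410), was at 4.33 in OTD and 7.28 in YTD, against 23.0 in OAD and 26.2 in YAD, and was the only member with a higher deposited value in YAD than in OAD. Among these 4 late genes, too, both anagen values were above both telogen values. Here too, 50.5% of tested genes had a higher anagen level in young and 51.6% in old mice. The share of tested genes separated in this way was not computed.

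**Figure D1:**
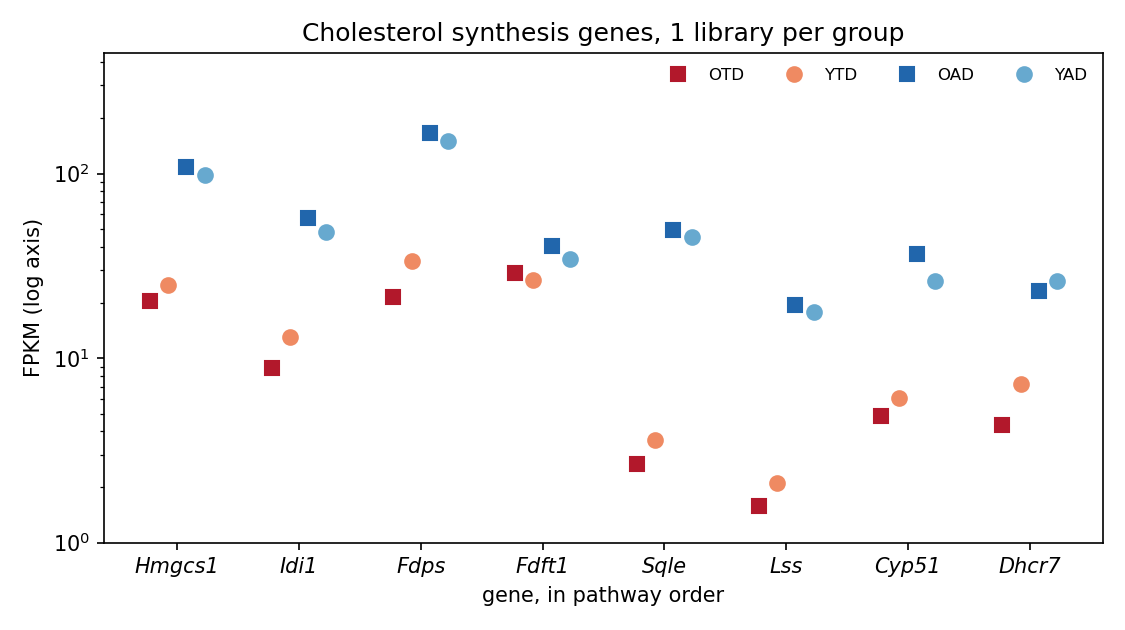
FPKM of the 8 genes (log axis), in pathway order, with 1 point per library: squares for old and circles for young mice, red shades for telogen and blue shades for anagen. Both anagen points of every gene lie above both of its telogen points, far above for Sqle (45.4 and 49.6 against 2.66 and 3.61) and little for Fdft1 (34.4 and 40.3 against 26.6 and 29.0). The share of all tested genes separated in this way was not computed.

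The members differed from one another more in telogen than in anagen. The highest of the 8 FPKM levels was 18.4 times the lowest in OTD and 16.1 times in YTD, against 8.56 times in OAD and 8.40 times in YAD. Fdft1 led in OTD and was next to Fdps in YTD, while in both anagen libraries the order was Fdps, Hmgcs1, Idi1, Sqle and only then Fdft1. Neighbours in these orders were often close, as Cyp51 and Dhcr7 were in YAD, both at 26.2 FPKM. Of the summed FPKM of the 8 genes, Fdft1 made up 31.2% in OTD and 22.7% in YTD, against 8.06% in OAD and 7.70% in YAD. Sqle, the next enzyme, made up 2.86%, 3.08%, 9.93% and 10.2% in the same order of libraries. The ratio of Sqle to Fdft1 FPKM was thus 0.0917 in OTD and 0.136 in YTD, against 1.23 in OAD and 1.32 in YAD, so the order of these 2 neighbouring steps was inverted between the phases.

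The first comparison asked how anagen dWAT differed from telogen dWAT at each age. In young mice all 8 genes were higher in YAD than in YTD, and 7 of 8 differed by at least 1 on the log2(FPKM + 1) scale, where 19.9% of tested genes were higher and 20.7% lower by that much. In old mice all 8 were higher in OAD than in OTD, again 7 of 8 by at least 1, where 20.1% of tested genes were higher and 19.4% lower by that much. Fdft1 was the exception at both ages. The median change of the 8 genes was 1.94 in young and 2.62 in old mice, beside medians of 0.01 and 0.05 over all tested genes. Rescaled to TPM, which moved the median of all tested genes to 0.72 and 0.56, all 8 genes passed a change of 1 at both ages. On that scale 5823 of 14203 tested genes were higher by at least 1 in young and 4895 in old mice. On the deposited scale these counts were 2829 and 2854.

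Sqle had the largest fold, 12.6 in young and 18.6 in old mice, with log2(FPKM + 1) changes of 3.33 and 3.79 that ranked 395 and 345 from the top of the tested genes. Lss followed with 8.55-fold in young and 12.2-fold in old mice, changes of 2.61 and 2.98. Fdps was 4.45-fold higher in young and 7.71-fold higher in old anagen tissue, changes of 2.12 and 2.89. Cyp51, Hmgcs1, Idi1 and Dhcr7 lay between 3.59-fold for Dhcr7 and 4.32-fold for Cyp51 in young mice. In old mice they lay between 5.31-fold for Hmgcs1 and 7.56-fold for Cyp51, and Cyp51 was close to Fdps at both ages. Fdft1 was 1.29-fold higher in young and 1.39-fold higher in old anagen tissue, changes of 0.36 and 0.46. Each of the 8 folds was larger in old than in young mice on the deposited scale. The median change of all tested genes was also larger in old mice, 0.05 against 0.01. The share of tested genes with a larger fold in old mice was not computed, so this count does not set the 8 genes apart. The difference in fold is made of the same 4 libraries as the age comparisons and was not tested. For Fdft1 the order turned on the TPM scale, with changes of 1.18 in young and 1.06 in old mice. It also turned without mitochondrial genes, with 0.57 and 0.30. The 8 genes rested on an estimated 69 to 4260 fragments per library. In young mice the approximate 95% counting interval of the log2 ratio of FPKM was 3.38 to 3.93 for Sqle and 2.77 to 3.42 for Lss, narrow beside their changes. For Fdft1 the interval was 0.22 to 0.52 in young and 0.34 to 0.61 in old mice, wide beside its changes. These intervals cover counting error only, not differences between mice or dissections.

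**Figure D2:**
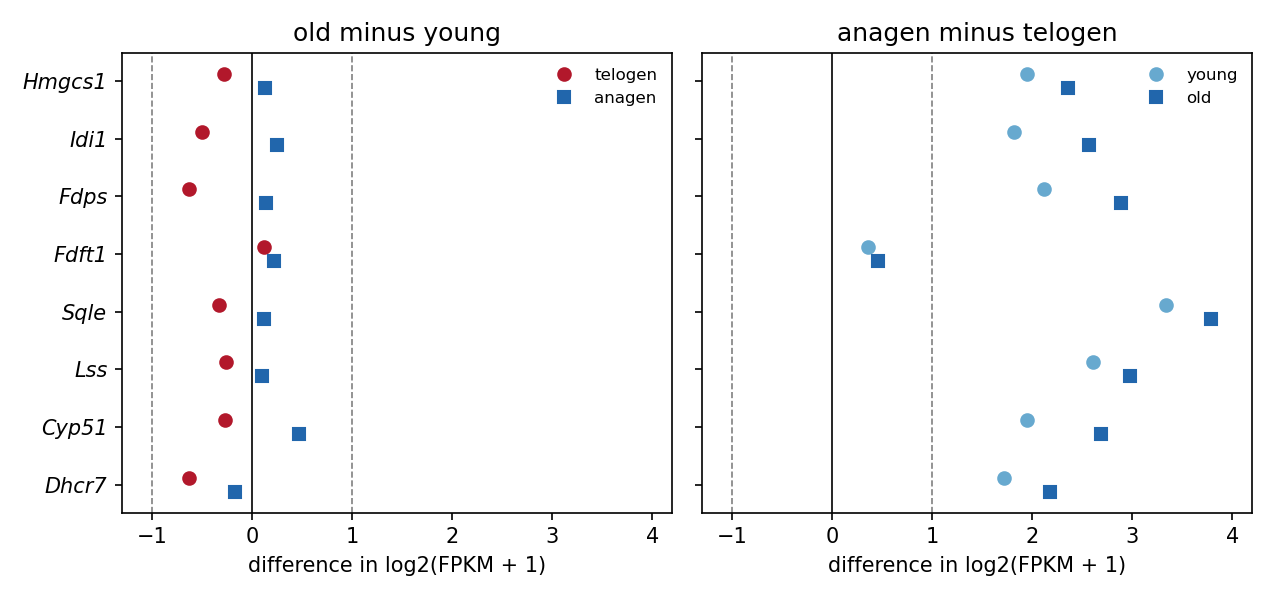
Difference in log2(FPKM + 1) for each of the 8 genes, between old and young mice within a phase (left panel) and between anagen and telogen within an age (right panel), with dashed lines at a change of 1 in either direction. All age differences lie inside the dashed lines, while 7 of the 8 genes lie beyond 1 in the phase comparison at both ages and Fdft1 does not.

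The other enzymes of the pathway, a list of 12, were also all higher in anagen on the deposited scale, 7 of 12 by at least 1 in young and 10 of 12 in old mice, with median changes of 1.04 and 1.31. On the TPM scale, where more of all tested genes were also higher by 1, 11 of 12 passed 1 at both ages. Without mitochondrial and muscle genes 8 of 12 passed it in each, with 11 of 12 higher in old mice. Acat2, the thiolase ahead of Hmgcs1, passed 1 in old mice alone of the 2 ages, with 1.21. Among the enzymes between mevalonate and the isoprenoid units, Mvd changes were 1.38 and 2.24 and Mvk changes 1.02 and 1.96, whereas Pmvk, with 1.28, again passed 1 in old mice alone. Of the enzymes between lanosterol and cholesterol, Msmo1 changes were 2.22 and 2.36, Hsd17b7 changes 1.98 and 1.89, Lbr changes 1.86 and 1.30, Tm7sf2 changes 1.07 and 1.15, and Nsdhl changes 1.06 and 1.31. Ebp with 0.47 and 0.23 and Sc5d with 0.51 and 0.73 stayed under 1 at both ages, like Fdft1. Idi2, a second isomerase, was listed at 0 in YTD and at 0.03 FPKM in OTD, and stood at 5.65 in OAD and 0.62 in YAD.

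**Figure D3:**
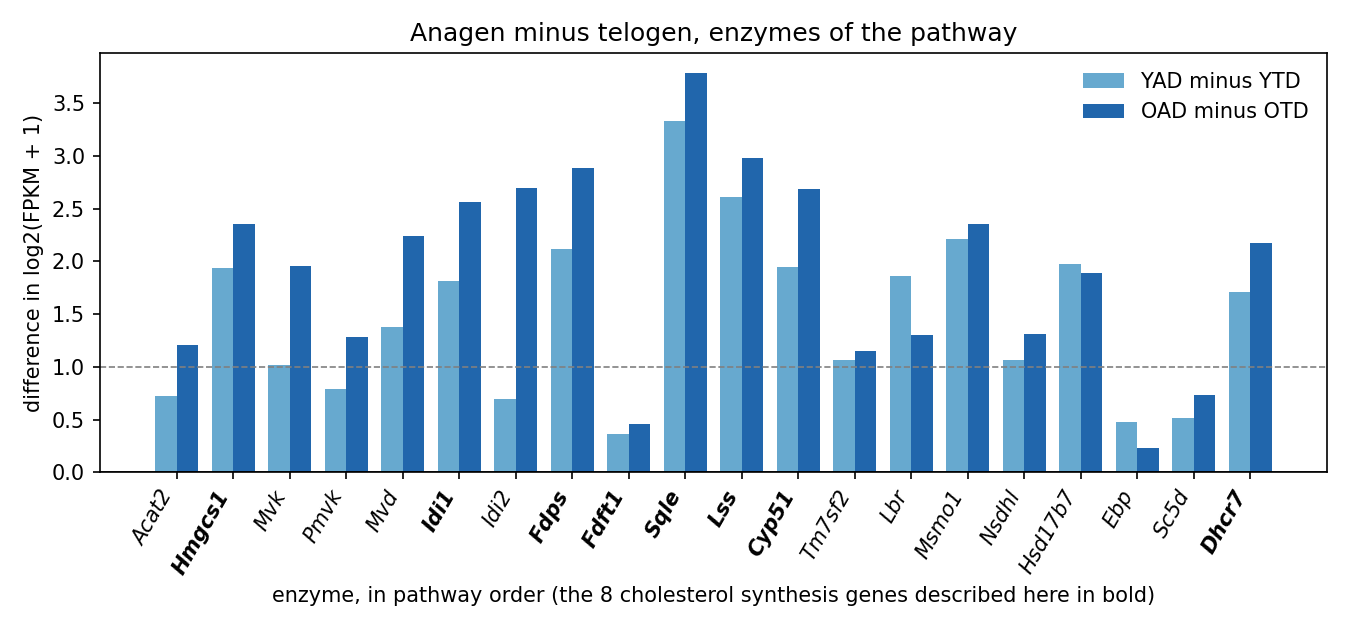
Difference in log2(FPKM + 1) between anagen and telogen for the 8 genes and 12 other enzymes in pathway order, with light bars for young mice, dark bars for old mice, a dashed line at 1 and the 8 genes in bold. All bars are above 0, the highest at Sqle (3.79 in old mice), Lss (2.98) and Fdps (2.89), and Fdft1, Ebp and Sc5d stay under 1 at both ages.

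The regulators of the pathway differed in both directions. Of 12 listed regulators, 2 were higher and 2 lower by at least 1 in young anagen tissue, and 3 were higher and 1 lower in old, with median changes of 0.09 and 0.15, the second of which turned to -0.14 without mitochondrial and muscle genes. On that scale 1 was higher and 3 were lower by at least 1 in old mice, so the calls of Insig1 and Insig2 there were lost. On the TPM scale 4 were higher and 1 lower in young and 5 higher and 1 lower in old mice. More of all tested genes were higher by 1 on the TPM scale too. Srebf2, which encodes SREBP-2, was at 9.19 FPKM in OTD and 9.40 in YTD, against 43.9 in OAD and 45.6 in YAD, changes of 2.16 in young and 2.14 in old mice. Srebf1, whose products act mainly on fatty acid synthesis, was at 29.3 in OTD and 35.8 in YTD, against 42.1 in OAD and 39.5 in YAD and stayed under 1. Insig1, a sterol-dependent brake on the pathway, was higher by 1.02 in young and 1.03 in old mice, and Insig2 by 1.01 in old mice. Nr1h3, the liver X receptor alpha that senses oxysterols, was lower by 1.96 and 1.56, from 21.0 and 17.8 FPKM in telogen to 4.68 and 5.39 in anagen. March6, a ubiquitin ligase of the endoplasmic reticulum that acts on pathway enzymes, had a change of -1.25 in young mice.

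Sterol uptake and intracellular transport genes were mixed as well: of 9 tested, 3 were higher and 1 lower by at least 1 in young, and 2 higher and 2 lower in old anagen tissue, with medians of 0.43 and -0.29. On the TPM scale 5 were higher and 0 lower in young and 3 higher and 1 lower in old tissue, and the second median turned to 0.28. Among those higher in anagen were Tmem97, a sterol-responsive membrane protein, with changes of 1.75 and 1.74, Npc1, which exports cholesterol from lysosomes, with 1.38 and 1.20, and Stard4, a sterol carrier, with 1.54 and 0.99. Lipa, the lysosomal acid lipase that frees cholesterol from lipoprotein esters, was lower by 1.36 in young and 2.46 in old mice, and Npc2, which works with Npc1 in lysosomal export, had a change of -1.06 in old mice. The young difference of Lipa was under 1 on the TPM scale. Among 9 tested genes of storage and efflux, 1 was higher and 1 lower by at least 1 in young and 1 higher and 4 lower in old tissue, against 4 and 0 and against 3 and 3 on the TPM scale. Soat1, which esterifies cholesterol, was higher by 2.41 and 1.91. Cyp27a1, which makes an oxysterol, was lower by 1.70 and 2.09, and in old mice Nceh1, Ch25h and Cyp7b1 had changes of -1.86, -1.25 and -1.47. The storage and efflux list had medians of -0.55 and -0.89, the first of which turned to 0.20 on the TPM scale.

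The isoprenoid branch, whose 10 genes use farnesyl and related diphosphates for prenylation, dolichol and ubiquinone, had median changes of -0.42 in young and -0.35 in old mice, which turned to 0.39 and 0.21 on the TPM scale, and a deposited change beyond 1 for Pdss2 alone, -1.16 in young mice. In old mice its 2 largest changes were Fntb, 0.82, and Fnta, -0.69, subunits of prenyltransferases. Fatty acid synthesis, a list of 12 that SREBP factors are also known to act on, had 3 genes higher and 4 lower by at least 1 in young and 4 higher and 1 lower in old mice, with medians of -0.15 and 0.15. The first median turned to 0.66 on the TPM scale, where 0 genes were lower by 1 at either age, and the second to -0.15 without mitochondrial and muscle genes. Within it Scd2 changes were 2.06 and 2.12, Fads2 changes 2.14 and 1.94, and Elovl6 changes 1.80 and 1.68, with Acly at 1.28 in old mice, while on the deposited scale Scd1, the main adipocyte desaturase, was lower by 1.45 and 1.56. On that scale Thrsp, Acss2 and Me1 had changes of -1.75, -1.33 and -1.23 in young mice. The change of Fdps, the enzyme that feeds both the sterol and the isoprenoid branch, was above the 0.86 and 0.82 of the highest gene of the isoprenoid list.

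Markers of several cell types differed between the phases. All 11 hair matrix and inner sheath markers were higher in anagen, with median changes of 5.26 in young and 6.43 in old mice. All 12 tested epidermis markers were higher, with medians of 3.18 and 4.23. The summed level of the list was 106 FPKM in OTD and 146 in YTD, against 3114 in OAD and 2344 in YAD. The list was uneven: Sfn alone was at 1420 FPKM in OAD and 1153 in YAD. Krt10 was at 1.39 to 3.78 and Lor at 0.27 to 6.94 over the libraries, while Ivl reached 136 in OAD and 91.1 in YAD. Krt1 was listed at 0 in YTD and under 0.13 elsewhere. All 10 proliferation markers were higher, with medians of 3.37 and 3.10, as were all 7 melanocyte markers, with medians of 4.86 and 4.29. Sebaceous gland markers were mixed, with 5 of 10 tested and median changes of 0.32 and 0.50. By at least 1, 2 were higher and 1 lower in young, and 2 higher and 0 lower in old mice. Elovl3 changes were 4.76 and 4.58 and Krt79 changes 2.14 and 2.16, while Cidea had -1.25 in young mice. The summed level of the list was 164 to 254 FPKM and was mostly Mgst1. Awat1 was listed at 0 in YTD and OAD, Dgat2l6 in YTD, OAD and YAD, and Scd3 in YTD. All 12 adipocyte markers were lower in anagen, with medians of -1.63 and -1.54, and on the TPM scale of -0.83 and -0.93. All 12 muscle markers were lower too, with medians of -3.10 and -1.99, but 11 of 12 on the TPM scale in old mice. Macrophage markers had medians of -1.53 and -2.19, endothelial markers of -1.62 and -1.88, and Schwann cell markers of -1.20 and -1.77. The part of these cell types in the difference of the 8 genes was not tested. With mitochondrial, muscle and all 113 keratin genes left out and the rest rescaled, the median change of the 8 genes was 2.24 in young and 2.70 in old mice. That step changes only the scale and keeps all reads of the 8 genes, so it cannot separate cell types.

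**Figure D4:**
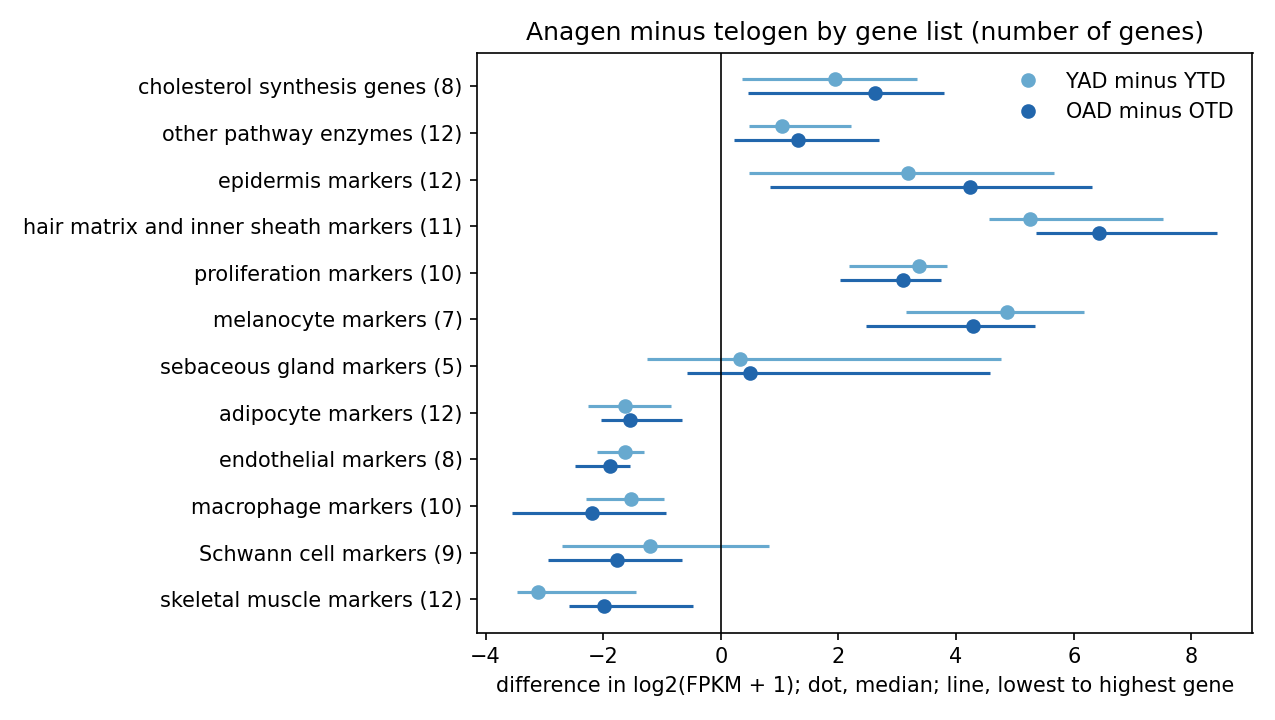
Difference in log2(FPKM + 1) between anagen and telogen for the 8 genes, the other enzymes and the marker lists; dots are medians and lines run from the lowest to the highest gene, light for young and dark for old mice. The 8 genes (medians 1.94 and 2.62) lie between the follicle and epidermis lists (3.18 to 6.43), which are higher in anagen, and the adipocyte list (-1.63 and -1.54), which is lower.

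The next comparison asked how old dWAT differed from young dWAT within a phase. In telogen 0 of the 8 genes differed by 1 or more, where 2.02% of tested genes were higher and 2.34% lower by that much in old mice. On a smaller scale 7 of 8 were lower in OTD than in YTD, as were 55.9% of tested genes, and the median change was -0.31 beside -0.06 over all tested genes. Dhcr7 with -0.64, Fdps with -0.63 and Idi1 with -0.50 were the furthest apart, in FPKM 4.33 against 7.28, 21.4 against 33.8 and 8.87 against 12.9. Sqle, Hmgcs1, Cyp51 and Lss followed with changes of -0.33, -0.28, -0.27 and -0.26, and Fdft1 was the only member that was higher in OTD, by 0.12. For 6 of the 8 genes this difference was beyond the approximate 95% counting interval, and for Fdft1 and Lss it was within it. The share of all tested genes beyond their own interval was not computed, so this count does not set the 8 genes apart. Of the 12 other enzymes 6 were lower and 6 higher in OTD, with a median change of -0.04 that turned to 0.08 without mitochondrial genes. Srebf2 was nearly level between OTD and YTD, with a change of -0.03. In the same comparison all 11 hair matrix markers were lower in OTD, with a median of -0.81, as were 10 of 12 epidermis markers (8 of 12 without mitochondrial genes), with a median of -0.36, and all 12 muscle markers, with a median of -0.67, and their part in the difference was not tested. Sterol storage and efflux had a median difference of 0.74, all 9 tested genes being higher in OTD under every scaling, and Ch25h with 1.13 and Cyp7b1 with 1.12, both of which make or break down oxysterols, were past a change of 1. With them 9 of 10 macrophage markers stood above their YTD levels, with a median difference of 0.30 and a summed level of 820 against 502 FPKM, as were all 8 endothelial markers, with a median of 0.62 and a summed level of 494 against 320.1 FPKM, 8 of 12 adipocyte markers, with a median of 0.29, and 7 of 9 Schwann cell markers, with a median of 0.38. Their part was not tested.

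In anagen 0 of the 8 genes differed by 1 or more between the ages, where 0.901% of tested genes were higher and 0.563% lower by that much in old mice. On the deposited scale 7 of 8 were higher in OAD than in YAD, as were 50.0% of tested genes, with a median change of 0.13 beside 0.00 over all tested genes, but on the TPM scale only 2 of 8 were higher and the median was -0.10, and without mitochondrial genes 3 of 8 were higher and the median was -0.03. These scalings moved the median of all tested genes to -0.20 and -0.15, and relative to it 7 of 8 genes stayed higher in OAD, all but Dhcr7, with medians of 0.11 and 0.12. Cyp51 had the largest difference, 36.5 against 26.2 FPKM, a change of 0.47 on the deposited scale, followed by Idi1 with 0.25 and Fdft1 with 0.22. Fdps, Hmgcs1, Sqle and Lss were within 0.10 to 0.14, and Dhcr7 was lower in OAD by 0.18. For 7 of the 8 genes the difference was beyond the counting interval, which does not cover the scaling, and for Lss it was within it. Here too the share of all tested genes beyond their own interval was not computed. Among the other enzymes Idi2 was past a change of 1, with 2.04, and the list of 12 had 8 higher and 4 lower, but 5 higher and 7 lower on the TPM scale. The median difference of the 10 proliferation markers was -0.37, with all of them lower in OAD, and that of the 12 epidermis markers was 0.28, with 9 of them higher, or 7 of them and a median of 0.08 on the TPM scale. Melanocyte markers had a median difference of -0.81 and macrophage markers one of -0.26, with all 7 and all 10 below their YAD levels. On the deposited scale all 12 adipocyte markers and all 8 endothelial markers were higher, with medians of 0.31 and 0.30, but 7 of 12 and 6 of 8 on the TPM scale. The part of these markers in the differences of the 8 genes was not tested.

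Read across both phases, which use different libraries, 6 of the 8 genes were lower in OTD than in YTD and higher in OAD than in YAD on the deposited scale: Hmgcs1, Idi1, Fdps, Sqle, Lss and Cyp51. The same pattern of signs was seen in 27.7% of tested genes. On that scale Fdft1 was higher in old mice in both phases and Dhcr7 lower in both. On the TPM scale the anagen sign turned for 5 of the 8 genes, along with a shift of all tested genes, and relative to their median all 6 genes stayed higher in OAD. The summed level of the 8 genes was 93.1 FPKM in OTD and 117 in YTD, against 499 in OAD and 447 in YAD. Rescaled to TPM without mitochondrial genes it was 158, 170.3, 751 and 753, so the phase difference remained on that scale and the 2 anagen libraries were nearly level.

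Genes with a profile like that of the 8 genes were sought among 6794 other genes with at least 5 FPKM in every library, as the smallest root mean square distance of centred log2(FPKM + 1) values over the 4 libraries from the mean profile of the 8 genes. The nearest was Zdhhc13, a palmitoyltransferase, at a distance of 0.0218, with 5.02 FPKM in OTD and 6.63 in YTD, against 31.9 in OAD and 29.8 in YAD. Abhd17c, a depalmitoylase, followed at 0.0276, then Ddx39, an RNA helicase, at 0.0438, Gm20390 at 0.0810 and Kdm5c, a histone demethylase, at 0.0978. Gm20390 shares exons with Nme1 and Nme2 on the same strand, so its value is uncertain. With 4 libraries many genes can take 1 shape by the phase difference alone, and these distances are a description. Of the 8 genes themselves, which helped to set the mean profile, Hmgcs1 at 0.0504 and Idi1 at 0.0663 were nearest to it. Fdft1 at 0.927 and Sqle at 0.664 were furthest, with 1997 and 816 other genes nearer than they were.

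Some of the values rest on reads that other annotated genes could share. Hmgcs1, Idi1, Fdps and Fdft1 have transcripts of 1, 5, 7 and 2 other genes with at least 90% identity over at least 300 bases, and only Ctsb of these was in the deposited table. Sqle, Lss, Cyp51 and Dhcr7 had none. Fdft1 shares 774 exon bases with Ctsb, the lysosomal protease cathepsin B, on the opposite strand, with 0 of them in the coding part of Fdft1. Ctsb was at 229 FPKM in OTD and 177 in YTD, against 216 in OAD and 181 in YAD. Cyp51 shares 166 exon bases outside its coding part with Akap9 on the opposite strand, and Fdps shares 1124 coding bases with Gm43738 on the same strand. Hmgcs1 shares 557 exon bases, 547 of them coding, with the antisense model Gm48342, and Lss shares 381, of which 188 are coding, with the antisense model 4930483K19Rik. Idi1 shares 323 exon bases, 0 of them coding, with Gm48574. Whether reads were counted by strand is not given in the sources used here, so reads from such pairs cannot be told apart, and the values of Hmgcs1, Idi1, Fdps, Fdft1, Lss and Cyp51 are uncertain to that extent.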

How the data were processed

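RNA of microdissected dWAT was sequenced by the authors on an Illumina HiSeq instrument, 1 library per group. The deposited unit is FPKM per gene for 22913 genes, with positions and listed lengths, 97.0% of which are multiples of 3 and so probably coding lengths. The submitters' processing notes name bcl2fastq, TopHat2 and GRCm38, with no versions or roles. The counter, annotation, strand and scaling are not given in the sources used here.

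FPKM were used as the authors deposited them. A change is a difference of log2(FPKM + 1), with a pseudocount of 1 that understates changes of low genes, and genes were counted at a change of at least 1. Genes under 1 FPKM in all libraries were left out, which left 14203. With 1 library per group no test was run, and no p-value or SD was computed. A model with additive age and phase terms would leave 1 residual degree of freedom and was not fitted. Depth was estimated from the smallest steps of FPKM times length in features of 2000 to 4000 bases. It is rough, and the counting intervals (normal approximation to the log ratio of Poisson counts) rest on it.

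The 8 genes and all gene lists were chosen with earlier results of these data known. All 8 genes are named. From each list the text gives counts and the median, and names genes past a change of 1 in the phase comparisons, or the 2 largest where fewer were past it. The 5 nearest profiles are named by distance. From the marker lists only selected genes are named, after their values were seen. The symbols Flg and Krt85 were not matched and are not analysed here, and 12 of 13 regulator entries were matched because 2 are names of 1 gene. Some genes of these lists are not reported here.

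The steps were tested on simulated data with 200 shifted genes per comparison in a table of 22913: all 200 were recovered in each comparison, and 1 to 7 of 12593 to 13169 unshifted genes were past a change of 1. The shifts were larger than that change, the shifted genes were well expressed and only counting error was simulated. Recovery was thus built in, and the result gives no rate of false calls for tissue libraries. Estimated depth was 99.9% of the true value there. Alternatives were a pseudocount of 0.1, a threshold of 0.58, a filter at 1 FPKM in both libraries, the median of ratios over 15507 genes, TPM, and leaving out mitochondrial, muscle and keratin genes. Python 3.11.15, numpy 2.4.6, pandas 2.3.3 and matplotlib 3.10.9 were used.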

Additional observations from a re-analysis of the deposited data

Results flagged for a closer look

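For 6 of the 8 genes the difference between old and young mice had opposite signs in the phases, lower in OTD than in YTD and higher in OAD than in YAD, with 1 library per group. The anagen minus the telogen difference was 0.77 for Fdps, 0.75 for Idi1, 0.74 for Cyp51, 0.46 for Sqle, 0.41 for Hmgcs1 and 0.37 for Lss, on the log2(FPKM + 1) scale. These differences between the phases were not tested, and the anagen sign turned on the TPM scale for Fdps, Sqle, Hmgcs1 and Lss, where the median of all tested genes was -0.20.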

How the results depend on the processing

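The phase difference kept its direction for all 8 genes under every alternative run. Its median moved from 1.94 in young mice to 2.75 on the TPM scale, 2.19 without mitochondrial genes and 1.99 without mitochondrial and muscle genes. In old mice it moved from 2.62 up to 3.19 and down to 2.53 and 2.40, in the same order. Without mitochondrial, muscle and keratin genes (an alternative chosen after seeing the data) it was 2.24 in young and 2.70 in old mice. On the TPM scale the median of all tested genes was itself 0.72 and 0.56. Relative to that median the TPM values were 2.02 and 2.62. The telogen age difference also kept its sign for all 8 genes, and at a threshold of 0.58 2 genes, Fdps and Dhcr7, were counted in place of 0. Fdps and Dhcr7 ranked 12894 and 12904 from the top of 14203 tested genes there. The share of tested genes past 0.58 was not computed. The anagen age median turned negative, from 0.13 to -0.10 (TPM), -0.029 (without mitochondrial genes) and -0.023 (without mitochondrial and muscle genes). The median of all tested genes was then -0.20, -0.15 and -0.14, and relative to it the 8 genes were higher by 0.11, 0.12 and 0.12. Signs of single genes turned in that comparison alone, for 5, 4 and 4 of the 8, and for 1 without keratin genes as well. Of the single values under an alternative, 150 kept their sign and moved by less than their counting error, and 74 moved further or changed sign. The 150 include values under the filter at 1 FPKM in both libraries, which changed nothing because all 8 genes passed it. Scaling also moved the share of higher among all genes past a change of 1: from 46.3% to 70.8% without mitochondrial genes for age in telogen, from 61.5% to 37.3% on the TPM scale for age in anagen, and from 49.1% to 82.0% in young and 50.8% to 76.5% in old mice on the TPM scale for phase. No paired analysis was possible because there was 1 library per group. Lss in telogen, at an estimated 69 fragments in OTD, had the least depth of the 8 genes.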
